A study of Homo sapiens with 6 samples.

Results

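The interleukin-1 (IL-1) family genes described here are 10 of the 28008 genes in a count table from DU-145-DR/tet-MUC1shRNA cells: the ligands IL1A, IL1B, IL18 and IL33, the antagonist IL1RN, the receptors IL1R1, IL1RL1 and IL18R1, the co-receptor IL1RAP and the adaptor MYD88. Members were chosen by gene symbol. IL1RL1 was included because its rise in these libraries was already known to be among the largest, so the change of each member between the groups is given as a description, with no p-value. DU-145 is a human prostate cancer line, and DU-145-DR is its derivative made resistant to docetaxel (DTX), a microtubule-binding drug. Both groups were taken to be the same resistant line with a doxycycline-inducible (DOX-inducible) hairpin against MUC1. The sample titles give the resistant line and the DOX state but no hairpin, which is described in the study. Column names of both groups carry the same tet tag. The treatment label names the hairpin for DOX-positive samples only. The DOX-negative group held 3 libraries from cells given 0.1% DMSO, and the DOX-positive group held 3 libraries from cells given 500 ng/ml DOX for 7 days. Whether the line is 1 clone is not stated in the sources used here. No library with DOX and a control hairpin was analysed here, so silencing of MUC1 and exposure to DOX cannot be told apart.

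IL-1 family cytokines are alarm signals that epithelial and immune cells make as precursors and release on damage or infection. Each binds a receptor chain, which can serve several cytokines, after which a shared chain, IL1RAP for the receptors of IL-1 and of IL-33, joins the complex. The paired intracellular domains then recruit MYD88 and IRAK kinases, which turn on NF-κB and MAP kinases. IL1RL1, also called ST2, is the receptor of IL-33 and is best known from mast cells, type 2 lymphocytes and regulatory T cells. A shorter secreted form of ST2, made from the same gene, binds IL-33 without signalling. Counts per gene do not separate the secreted form from the membrane form.

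Library totals lay between 15092691 and 23243713 counts, and 3 counts, taken as the detection floor for counting error only, stood for 0.131 to 0.202 CPM (counts scaled to a TMM-adjusted library total). MUC1, the targeted gene, fell from 21.9 ± 2.58 to 3.86 ± 0.585 CPM (SD, n = 3 per group), a log2 fold change of -2.52 ± 0.146 (SE; edgeR quasi-likelihood test, Benjamini-Hochberg adjusted p = 4.47e-11). The epithelial genes KRT8, KRT18, EPCAM and CDH1 were present in all 6 libraries. All 4 epithelial genes also passed the test as higher, where 13% of all genes tested did. Their log2 fold changes ran from 0.81 for KRT18 to 1.43 for EPCAM. Their summed counts, not scaled for library totals, ran from 10661 to 12729 in DOX-negative and from 17286 to 26728 in DOX-positive libraries. The part of this shift in the members' values was not tested.

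Of the 10 members, 6 passed the low-count filter and so were tested, and 4 of these were called. IL1RL1, IL18 and MYD88 were called higher and IL1RAP lower at an adjusted p under 0.05 (edgeR). Over all 14292 genes tested, 26.7% were called, 13% higher and 13.7% lower. IL1R1 and IL18R1 passed the filter and were not called. IL1RN fell below the filter, and IL1A, IL1B and IL33 were at or near 0. In 4 of the 6 tested members the CPM ranges of the groups did not overlap, against 39.8% of all genes tested. Since the rule used this contrast, nothing is read from these counts. In bulk RNA, fewer cells expressing a gene and less RNA per cell cannot be told apart.

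**Figure D1:**
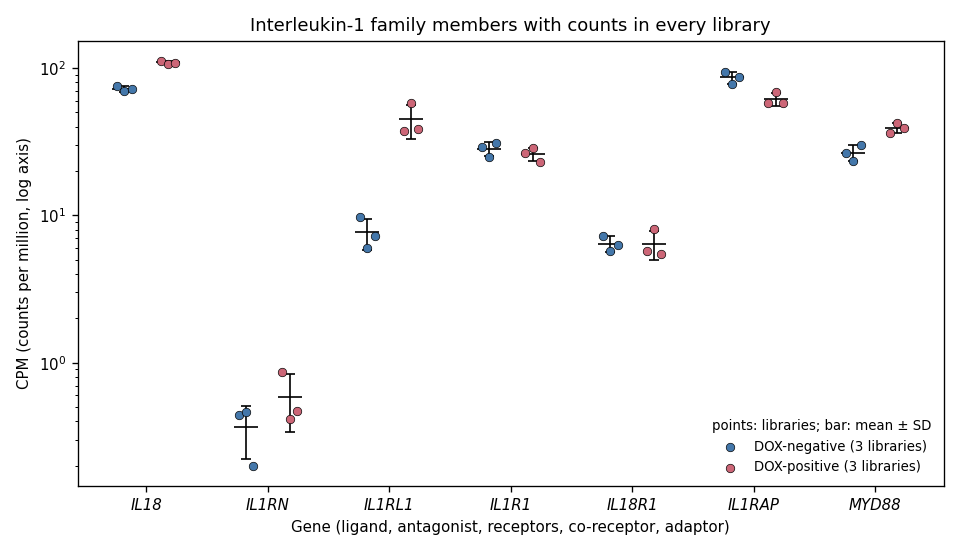
CPM on a log axis for the 7 interleukin-1 family genes with a count in every library. Each point is 1 library, and the bars give the mean ± SD of the 3 DOX-negative (blue) and the 3 DOX-positive (red) libraries. IL1RL1 rose from 7.66 to 44.8 CPM on average, IL18 and MYD88 shifted less, IL1RAP lay lower in all DOX-positive libraries, and the groups overlapped for IL1R1, IL18R1 and IL1RN.

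IL-1α and IL-1β, the agonists of IL1R1, were close to absent: IL1A had 2 counts in DOX-negative replicate 2 and 0 in the other 5 libraries, and IL1B had 1 count in DOX-negative replicate 3 and 0 elsewhere. IL33, which encodes the ligand of IL1RL1, had 0 counts in all 6 libraries. These values lay at or under the detection floor in each library, so no fold change is given for the 3 genes.

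IL18, whose product is cleaved by inflammasome caspases and drives interferon-γ production in lymphocytes, was the most abundant member per length (TPM), although IL1RAP had more counts in DOX-negative libraries. IL18 held 1380, 1357 and 1446 counts in DOX-negative replicates 1 to 3 and 2569, 2052 and 1621 in DOX-positive replicates 1 to 3. Scaled to CPM, the means were 72.4 ± 3.31 and 109.4 ± 2.40 (SD, n = 3). Every DOX-positive library lay above every DOX-negative library on this scale. The log2 fold change was 0.60 ± 0.0688 (SE).

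IL1RN encodes the secreted antagonist that occupies IL1R1 without signalling. Its counts were 8, 9 and 4 in DOX-negative and 20, 8 and 7 in DOX-positive libraries. The groups overlapped, with the highest value in DOX-positive replicate 1. With no filter its fitted log2 fold change was 0.71 ± 0.61 (SE).

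IL1RL1 showed the largest change among the tested members. DOX-negative replicates 1 to 3 held 176, 118 and 146 counts, or 9.69, 6.03 and 7.26 CPM. DOX-positive replicates 1 to 3 held 858, 1117 and 577 counts, or 37.4, 58.4 and 38.8 CPM. The lowest DOX-positive library was thus well above the highest DOX-negative one, and DOX-positive replicate 2 stood above the other two of its group. The ratio of the means was 5.85, and the fitted log2 fold change was 2.55 ± 0.163 (SE). Leaving out any 1 library gave values between 2.32 and 2.75. Among 1795 genes called higher with an average logCPM of at least 1, IL1RL1 held rank 3 by log2 fold change. The keratin-associated gene KRTAP2-3 lay just above it at 2.60 ± 0.183 and the integrin gene ITGA2 just below at 2.31 ± 0.0641. This order depended on the fit: on log2(TPM + 1) IL1RL1 had 2.264 and ITGA2 2.266. Under DESeq2 the SE of IL1RL1 was 0.295. At rank 1 stood CD79A, a B cell receptor component, at 3.29 ± 0.169, and at rank 5 LOX, a collagen cross-linking enzyme, at 2.17 ± 0.104.

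IL1RL1 lies on the plus strand of chromosome 2 (chr2:102311563-102352356 in the RefSeq annotation of GRCh38.p14, the build named without its patch in the submitters' processing notes). RefSeq lists 2 start sites for it, 25694 bases apart, and the counts do not tell which was used. Their promoter windows, 250 bases before to 50 after the start, are shown because they belong to the member that changed most, and that of IL18R1 because it is the next gene downstream and was not called. Capitals mark motif matches on either strand. The letters searched for AP-1 factors were TGANTCA. For GATA factors any base followed by GATAA was searched. The TATA box was searched as TATAAA. The E-box was searched as CACGTG, and the NF-κB consensus was searched too. Matches to different motifs could overlap. All 3 windows are on the plus strand.
IL1RL1 upstream start, chr2:102311313-102311612: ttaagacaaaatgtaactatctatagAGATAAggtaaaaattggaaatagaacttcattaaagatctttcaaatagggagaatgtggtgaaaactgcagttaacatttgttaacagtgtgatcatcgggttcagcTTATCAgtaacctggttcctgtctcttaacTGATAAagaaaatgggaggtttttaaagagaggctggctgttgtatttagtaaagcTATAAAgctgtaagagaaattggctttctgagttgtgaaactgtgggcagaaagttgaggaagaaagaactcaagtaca
IL1RL1 downstream start, chr2:102337007-102337306: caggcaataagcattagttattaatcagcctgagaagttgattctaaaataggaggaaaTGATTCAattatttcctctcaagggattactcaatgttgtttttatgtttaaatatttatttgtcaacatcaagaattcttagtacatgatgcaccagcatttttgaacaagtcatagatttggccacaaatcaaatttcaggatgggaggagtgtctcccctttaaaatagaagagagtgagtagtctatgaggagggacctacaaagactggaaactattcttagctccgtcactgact
IL18R1 first start, chr2:102355546-102355845: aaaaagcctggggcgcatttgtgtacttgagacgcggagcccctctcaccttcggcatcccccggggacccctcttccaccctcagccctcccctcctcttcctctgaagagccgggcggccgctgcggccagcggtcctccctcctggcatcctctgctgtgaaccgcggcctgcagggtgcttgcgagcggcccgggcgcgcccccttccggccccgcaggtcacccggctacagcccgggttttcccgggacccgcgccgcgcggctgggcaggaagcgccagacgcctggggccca

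The upstream IL1RL1 window held 3 matches to the GATA letters and 1 to the TATA letters, and the downstream window held 1 match to the AP-1 letters. Among 35116 RefSeq promoter windows of the same length, 22.7% held the GATA letters, 11.5% the TATA letters, 7.71% the AP-1 letters, 7.26% the E-box and 5.91% the NF-κB consensus. Both IL1RL1 windows were poor in G and C, at 35.0% and 35.7%, with 1 CpG each, where the median window held 58.7% and 14 CpGs. The IL18R1 window printed held 72.3% G and C, 29 CpGs and no capitals. IL18R1 has a second listed start 487 bases downstream, whose window held 56.7% G and C, 16 CpGs and 1 match to the GATA letters. These are descriptions of the letters and say nothing about binding. Promoter entries were matched for 9 of the 10 members, 18 in all, and none for IL18.

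The values of the other receptor chains lay close together in the groups. IL1R1, the signalling receptor of IL-1, held 529, 490 and 626 counts in DOX-negative and 605, 549 and 344 in DOX-positive libraries. The means were 28.4 ± 3.10 and 26.1 ± 2.79 CPM (SD, n = 3), the groups overlapped, and the log2 fold change was -0.12 ± 0.104 (SE). IL18R1, the binding chain for IL-18, held 132, 112 and 126 counts against 132, 155 and 81. Its means were 6.42 ± 0.780 and 6.43 ± 1.45 CPM, with overlapping groups and a log2 fold change of 0.0082 ± 0.177 (SE). Its direction depended on which library was left out, from -0.19 to 0.10.

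IL1RAP, the co-receptor that completes the IL1R1 and IL1RL1 complexes, moved the other way. Its counts were 1709, 1521 and 1760 in DOX-negative and 1321, 1310 and 868 in DOX-positive libraries. In CPM the means were 86.5 ± 8.20 and 61.5 ± 6.06 (SD, n = 3), with all DOX-positive libraries below all DOX-negative ones. The log2 fold change was -0.49 ± 0.0847 (SE). MYD88, the adaptor at the receptors' shared intracellular domain and at most Toll-like receptors, held 484, 458 and 600 counts against 828, 808 and 585. Its means were 26.6 ± 3.21 and 39.2 ± 3.07 CPM, again without overlap, and its log2 fold change was 0.56 ± 0.0986 (SE).

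Levels of different genes were compared per length, as TPM, the transcript level scaled for length and library, recomputed here without 5 short noncoding RNAs that took 34.4% to 64.4% of it. In DOX-negative libraries the order was IL18 (208 to 228 TPM), IL1RAP (30.2 to 36.1), MYD88 (23.8 to 28.8), IL1R1 (11.7 to 13.9), IL18R1 (4.38 to 5.48), IL1RL1 (3.36 to 5.32) and IL1RN (0.272 to 0.662). Only the ranges of the neighbours IL18R1 and IL1RL1 overlapped. In DOX-positive libraries the order was IL18 (317 to 324 TPM), MYD88 (34.7 to 41.6), IL1RL1 (19.7 to 31.5), IL1RAP (21.2 to 25.8), IL1R1 (10.5 to 13), IL18R1 (4.04 to 6.01) and IL1RN (0.582 to 1.19). There the overlapping neighbours were IL1RL1 and IL1RAP.

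Set against its co-receptor within each library, IL1RL1 had 0.148, 0.111 and 0.119 TPM per TPM of IL1RAP in DOX-negative replicates 1 to 3. In DOX-positive replicates 1 to 3 the ratio was 0.931, 1.22 and 0.953. IL1RL1 transcripts thus went from a small part of the IL1RAP level to about the same level. The IL1R1 to IL1RAP ratio was 0.373, 0.388 and 0.428 in DOX-negative and 0.551, 0.504 and 0.477 in DOX-positive libraries, without overlap although IL1R1 itself was not called. Of the summed TPM of IL1R1 and IL1RL1, IL1RL1 made up 28.4%, 22.3% and 21.7% in DOX-negative and 62.8%, 70.8% and 66.6% in DOX-positive libraries. The more abundant of the 2 receptor transcripts was therefore IL1R1 in all DOX-negative and IL1RL1 in all DOX-positive libraries. These ratios share the contrast that chose IL1RL1 and carry no test.

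**Figure D2:**
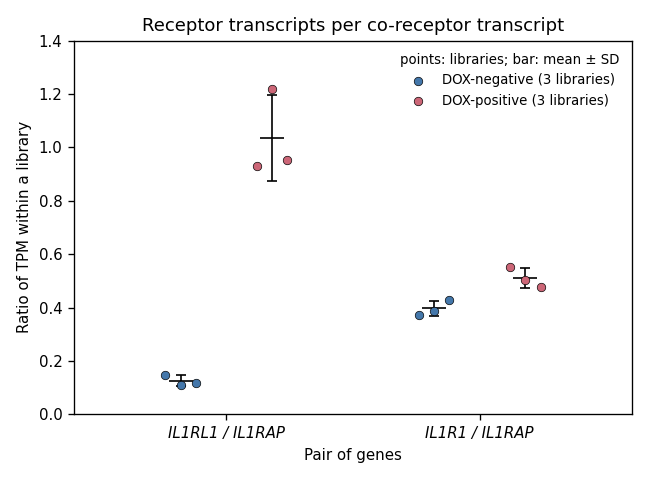
Ratio of TPM within a library (vertical axis) for IL1RL1 over IL1RAP and for IL1R1 over IL1RAP. Points are libraries, and bars give the mean ± SD of 3 DOX-negative (blue) and 3 DOX-positive (red) libraries. The mean IL1RL1 to IL1RAP ratio was 0.126 and 1.04 in the 2 groups, and the IL1R1 to IL1RAP ratio was 0.396 and 0.511.

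Several members sit together on chromosome 2, and their neighbours were examined for a change across the region. IL1R1 (chr2:102070390-102179874), IL1RL1 and IL18R1 (chr2:102355796-102398776) lie in a receptor cluster at 2q12, where IL18R1 starts 3440 bases after IL1RL1 ends and IL1RL1 starts 131689 bases after IL1R1 ends. IL1R2, IL1RL2, IL18RAP and SLC9A4, the other genes of this stretch, were below the filter, IL18RAP at 0 in every library. On one flank MAP4K4, a stress kinase gene, rose with a log2 fold change of 0.38 ± 0.0664 (SE, edgeR with an adjusted p of 0.000183). On the other flank SLC9A2, a sodium-proton exchanger gene, had -0.13 ± 0.119 (edgeR adjusted p = 0.473). The nearest genes on either side of IL1RL1 that passed the filter were IL1R1 and IL18R1, neither of which was called. IL1RL2, which lies between IL1R1 and IL1RL1, had 3, 2 and 1 counts in DOX-negative and 5, 21 and 3 in DOX-positive libraries. With no filter IL1RL2 was called higher (2.22 ± 0.836, edgeR adjusted p = 0.0418), with most of its counts in DOX-positive replicate 2.

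**Figure D3:**
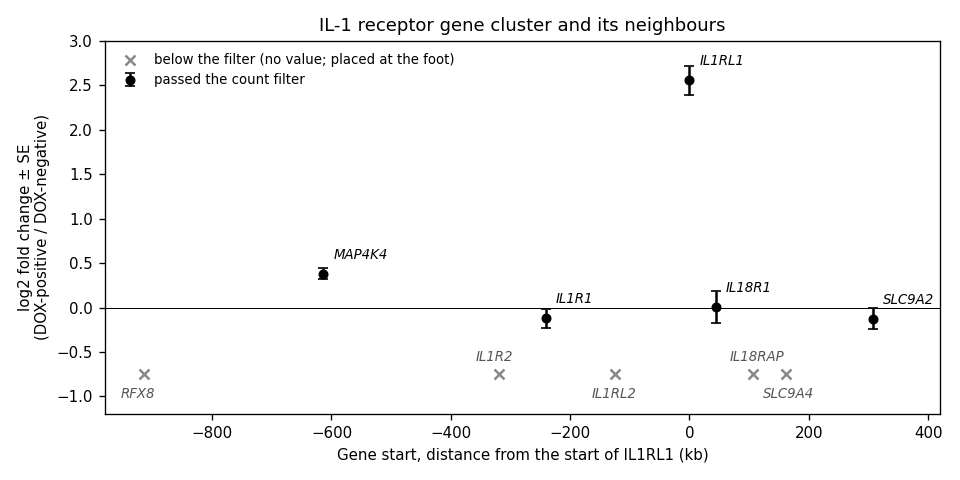
Log2 fold change ± SE (vertical axis, DOX-positive over DOX-negative, edgeR) against the distance of each gene's start from that of IL1RL1 in kb (horizontal axis). Crosses at the foot mark genes below the filter, IL1RL2 among them, which have no value in this fit. IL1RL1 stands at 2.55, while IL1R1 and IL18R1 lie near 0.

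The ligand cluster at 2q14 held IL1A (chr2:112773925-112784493), IL1B (chr2:112829751-112836779) and IL1RN (chr2:113099360-113134014). IL37, IL36G, IL36A, IL36B, IL36RN and IL1F10, which lie between IL1B and IL1RN, had at most 5 counts in any library. Among the flanking genes, the phosphate transporter gene SLC20A1 fell with a log2 fold change of -0.29 ± 0.0785 (edgeR adjusted p = 0.00914), a call lost without DOX-negative replicate 3, where it was -0.24. CKAP2L (0.045 ± 0.0722), PSD4 (0.19 ± 0.138) and PAX8 (0.14 ± 0.304) did not pass the test, with edgeR adjusted p of 0.695, 0.331 and 0.783. The remaining members lie on other chromosomes: IL1RAP at chr3:190514085-190659750, MYD88 at chr3:38138661-38143022, IL33 at chr9:6215149-6257983 and IL18 at chr11:112143260-112164094.

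Of 13 further family genes, IL18BP alone passed the filter. It encodes the secreted binding protein that neutralises IL-18. Its counts were 205, 203 and 176 in DOX-negative and 241, 138 and 156 in DOX-positive libraries, and its log2 fold change was -0.11 ± 0.156 (SE, edgeR with an adjusted p of 0.655). In TPM, IL18 exceeded IL18BP by 21.9 ± 2.63 times in DOX-negative and by 36.4 ± 7.60 times in DOX-positive libraries (SD, n = 3), with no overlap. IL36A, IL36RN, IL1F10, IL18RAP and IL1RAPL2 were at 0 in all libraries. IL18RAP encodes the co-receptor chain for IL-18, so IL18R1 was detected without a count of its partner. The decoy receptor IL1R2 had 2, 4 and 0 counts in DOX-negative libraries and 0 in DOX-positive ones, and the inhibitory receptor SIGIRR had 4, 3 and 2 against 6, 7 and 0. IL1RL2, the receptor of the IL-36 cytokines, had 3, 2 and 1 counts against 5, 21 and 3, most of them in DOX-positive replicate 2. With no filter on counts it was called higher at a log2 fold change of 2.22 ± 0.836 (edgeR adjusted p = 0.0418). IL36B, IL36G, IL37 and IL1RAPL1 had at most 7 counts in any library.

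Genes that carry the signal from the receptor were expressed throughout: all 20 of the list passed the filter. Of these, 3 rose and 3 fell, against 13% and 13.7% of all genes, and the median log2 fold change was -0.0378, beside -0.00336 over all genes tested. IRAK4, the kinase that MYD88 binds first, rose with a log2 fold change of 0.59 ± 0.107 (SE, edgeR with an adjusted p of 0.000269), from 13.4 ± 0.671 to 20.2 ± 0.532 CPM. The kinase gene MAP3K3 rose by 0.42 ± 0.0773 (edgeR adjusted p = 0.000353) and TAB3, an adaptor of the TAK1 kinase, by 0.27 ± 0.0741 (edgeR adjusted p = 0.00905). MAP3K7, which encodes TAK1 itself, fell from 57.9 ± 1.33 to 43.0 ± 0.144 CPM, a log2 fold change of -0.43 ± 0.0756 (edgeR adjusted p = 0.000209). The ubiquitin ligase gene PELI1 had -0.31 ± 0.0843 (edgeR adjusted p = 0.00971) and the kinase gene MAP3K8 -0.68 ± 0.238 (edgeR adjusted p = 0.0379). PELI1 lost its call without DOX-negative replicate 1 (-0.25) or DOX-positive replicate 3 (-0.26). MAP3K8 lost its call without DOX-negative replicate 2 (-0.74) or 3 (-0.49), or without DOX-positive replicate 2 (-0.49) or 3 (-0.65). IRAK1, IRAK2, IRAK3 and TRAF6 had log2 fold changes of 0.17, 0.025, -0.084 and -0.0079 and did not pass the test.

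The IL-1β and IL-18 precursors are cut by inflammasome caspases, and several genes of that step were at or near 0 while others were expressed. CASP1, which encodes the IL-1β and IL-18 converting enzyme, had 1 count in 1 library, and CASP5, PYCARD, AIM2 and CARD18 had 0 in all. CASP8, a caspase that can also cut the IL-1β precursor, held 35.8 ± 1.59 and 34.7 ± 1.4 CPM (SD, n = 3) and did not pass the test. Of 21 genes in the processing and release list, 12 passed the filter, and 4 of them rose, against 13% of all genes tested. None fell by edgeR or by DESeq2, nor at an unadjusted edgeR p under 0.05, where edgeR called 13.7% of all genes lower. With only 12 genes tested, nothing is read from this absence of falls. The median log2 fold change was 0.0449, beside -0.00336 over all genes tested. CAPN2, a subunit of the calpain proteases that can cut the IL-1α precursor, rose from 674.7 ± 14.7 to 1021 ± 32.7 CPM (log2 fold change 0.60 ± 0.0607, edgeR adjusted p = 1.76e-07). CAPN1 rose by 0.23 ± 0.067 (edgeR adjusted p = 0.0135) and NEK7, a kinase that binds NLRP3, by 0.41 ± 0.069 (edgeR adjusted p = 0.000118). CASP4, an inflammatory caspase that senses bacterial lipopolysaccharide, rose by 0.30 ± 0.0965 (edgeR adjusted p = 0.0224). NLRP3 had at most 4 counts in any library. Without DOX-negative replicate 1, both CAPN1 (0.22) and CASP4 (0.27) lost their calls, which left 2 genes called. CAPN1 also lost its call without DOX-positive replicate 1 (0.18), and CASP4 without DOX-negative replicate 3 (0.29) or DOX-positive replicate 3 (0.31).

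Of 28 genes known from other systems to be induced by IL-1, 20 passed the filter, 10 of them rose and 3 fell, against 13% and 13.7% of all genes tested. Their median log2 fold change was 0.279, beside -0.00336 over all genes tested, and CSF3 was at 0 in all libraries. On log2(TPM + 1), where 22 genes of the list were tested, 8 were called. CXCL2, a neutrophil chemokine, rose from 15.1 ± 1.16 to 37.8 ± 1.51 CPM (SD, n = 3), a log2 fold change of 1.33 ± 0.097 (SE, edgeR with an adjusted p of 1.35e-09). Its relative CXCL1 had 1.06 ± 0.182 (edgeR adjusted p = 0.000157), the cytokine IL6 had 0.97 ± 0.18 (edgeR adjusted p = 0.000345) and the NF-κB feedback inhibitor TNFAIP3 had 0.83 ± 0.0754 (edgeR adjusted p = 3.62e-08). LCN2, an iron-scavenging protein gene, rose by 1.34 ± 0.238 (edgeR adjusted p = 0.000218), with 352 counts in DOX-positive replicate 2 against 195 and 130 in the other two, and by 0.88 without that library. PTGS2, the inducible prostaglandin synthase, had only 7, 6 and 1 counts against 15, 20 and 26, with a log2 fold change of 2.16 ± 0.556 (edgeR adjusted p = 0.00592). It passed the filter through the DOX-positive libraries alone, the group where it was higher, so its call adds little to the count of rises. With at least 10 counts required in every library, 18 genes of the list were tested without PTGS2. Of these, 12 were called and 9 rose, beside 1802 rises among all 13358 genes tested there. CXCL8, a classical target of IL-1, held 71.5 ± 2.34 and 77.9 ± 10.5 CPM and did not pass the test (0.12 ± 0.0855, edgeR adjusted p = 0.313). It was 1 of 7 tested genes of the list that were not called. Among the others were NFKBIA at -0.11 ± 0.0778 (edgeR adjusted p = 0.339) and ICAM1 at -0.16 ± 0.0708 (edgeR adjusted p = 0.0959).

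The 3 genes that fell are named after their values were seen. TNFAIP2 had -0.61 ± 0.0685 (edgeR adjusted p = 6.97e-07), BIRC3 -0.25 ± 0.0779 (edgeR adjusted p = 0.0217) and IL11 -0.43 ± 0.155 (edgeR adjusted p = 0.0431). BIRC3 lost its call without DOX-negative replicate 1 (-0.21) or DOX-positive replicate 1 (-0.22). IL11 lost its call without any of DOX-negative replicates 1 (-0.48), 2 (-0.47) and 3 (-0.33) or DOX-positive replicates 1 (-0.39) and 2 (-0.34), and under DESeq2. All the genes of this list are known to respond to other signals too.

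**Figure D4:**
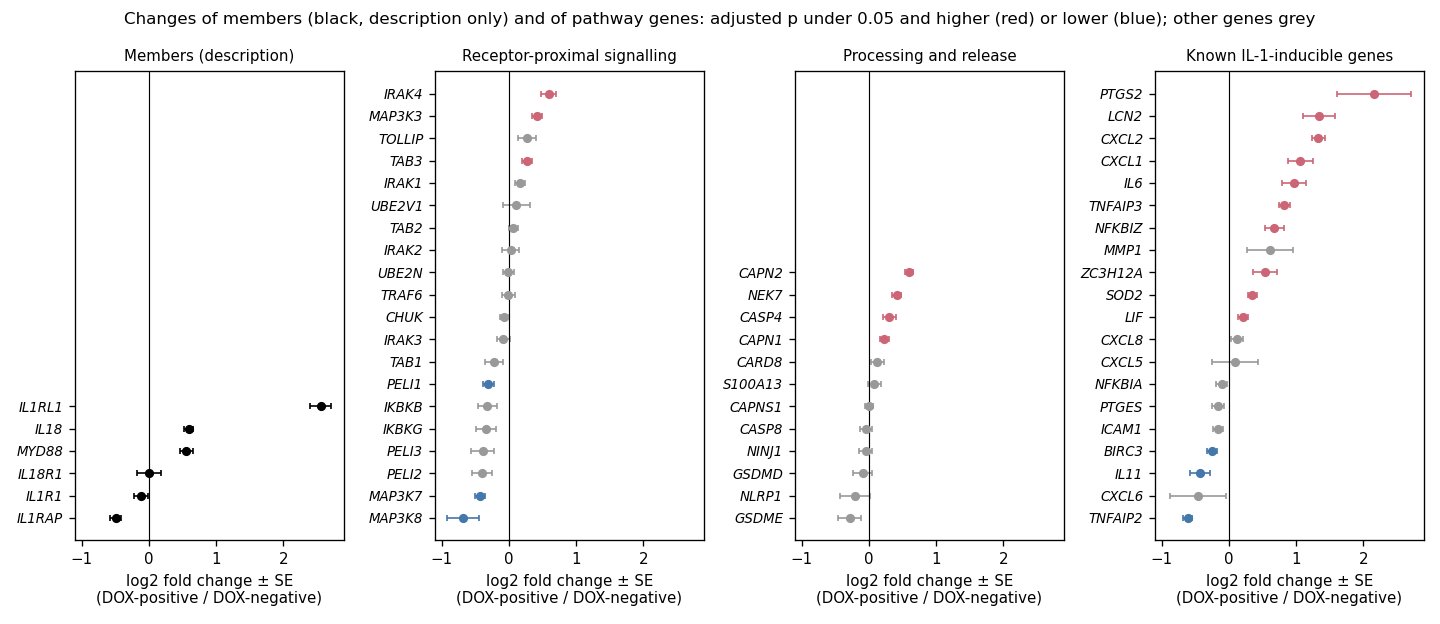
Log2 fold change ± SE (horizontal axis, DOX-positive over DOX-negative, edgeR, 3 libraries per group) of every gene that passed the filter, in 4 panels. Members are black, and in the other panels red and blue mark genes called higher and lower and grey those not called. IL1RL1 at 2.55 and PTGS2 at 2.16 lie farthest to the right, and the known IL-1-inducible genes hold 10 of the red points. PTGS2, one of these, passed the filter through the DOX-positive libraries alone.

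IL1RL1 is carried by mast cells and some leukocytes, so their markers were counted as a check for other cells in the cultures. The 7 mast cell genes summed to between 0 and 2 counts in a library, with TPSB2, CPA3 and CMA1 at 0 throughout. The 7 leukocyte genes summed to between 6 and 17 counts and the 5 endothelial genes to between 5 and 22. IL1RL1 itself held 577 to 1117 counts in DOX-positive libraries. None of the 3 marker lists had a gene that passed the filter.

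Over the 6 libraries, the genes whose log2 CPM followed IL1RL1 most closely among 12362 were MCUR1 (Pearson's r = 0.9999), CACHD1 (0.9984), ELL2 (0.998), MAP4K5 (0.9976) and MAL2 (0.9972). Their own log2 fold changes were smaller, from 0.25 for CACHD1 to 0.88 for ELL2. The points share the libraries and the split into groups, and 544 genes had an r above 0.95. The heptamer ATCAGTA, singled out in earlier work on these libraries, was found in the longest transcript of 18.1% of 12392 genes. Genes with it were called lower in 27.8% of cases and genes without it in 12.1%. Transcript length was not matched between these sets. Since the heptamer was singled out in these same libraries, the shares are a description and give it no independent support. None of the 6 tested members holds the heptamer, IL1RAP included, whereas MAP3K7, PELI1 and BIRC3 hold 1 copy each and TAB3 and PTGS2, which rose, hold 1 and 2. MAP3K8, TNFAIP2 and IL11, which were also called lower, hold none, and IRAK3, UBE2N, IKBKB and CXCL5 hold 1 copy each and were not called. Its part in the values of these genes was not tested.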

How the data were processed

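Poly(A)-selected stranded libraries (TruSeq Stranded mRNA) were made by the authors from RNA of triplicate cultures (RNeasy Plus). Labels do not say whether the cultures were independent, so p-values measure the spread between these libraries. The authors deposited whole-number read counts for 28008 genes and TPM values for 25546 genes, the latter with 1 fixed length per gene. The submitters' processing notes name STAR, DESeq2 and GRCh38/hg38; aligner settings, counting, use of strand and annotation are not given in the sources used here, so overlapping genes may share reads. Groups and replicate numbers came from sample titles, and table columns, whose names abbreviate the resistant line differently, were matched by DOX state and number.

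Genes were kept with filterByExpr (14292), scaled with TMM factors (0.986 to 1.03) and tested with edgeR 4.0.16 in R 4.3.3 (glmQLFit, glmQLFTest, two-sided, group only, Benjamini-Hochberg adjusted p under 0.05 over all genes tested). SE is the absolute log2 fold change over the square root of F. Fits were tested on simulated counts for 14292 genes, where edgeR recovered 88% of genes changed by 1 and 99% of those changed by 2 on the log2 scale. There edgeR also called 12 unchanged genes. Only 200 genes were changed in the simulation, whereas 3816 were called in these data. Simulated libraries were drawn independently, which is not known of the real ones. TPM was rescaled without RN7SL1, RN7SL2, RN7SL3, RN7SK and RPPH1. Alternatives were DESeq2 1.42.0, a replicate block, scaling by RLE factors or by library totals, a filter of at least 10 counts in each library or no filter, limma 3.58.1 on log2(TPM + 1) and log2(TPM + 0.1), whose fold changes understate those of low genes, and each library left out in turn.

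Replicate libraries differed beyond sampling noise (chi-square per degree of freedom 3.65 to 19), and each was counted as 1 replicate. This spread does not tell independent cultures from repeat libraries of 1 culture. The members, gene lists and tests were chosen with earlier results of these data known. Named genes were the members, MUC1, further family genes with a count, up to 6 called genes with the largest change per list, cluster neighbours that passed the filter (3 per side), the 5 genes most alike IL1RL1 and those next to it in the order of changes; TNFAIP2, BIRC3, IL11 and some uncalled or undetected list genes were added after their values were seen. Promoter sequences and positions are from RefSeq (GRCh38.p14), and transcripts for the heptamer from GENCODE 29. A few marker genes are not reported here.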

Additional observations from a re-analysis of the deposited data

How the results depend on the processing

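Under all 14 alternatives IL1RL1, IL18, MYD88 and IL1RAP kept their direction and call, 4 of the members were called, and IL1R1 and IL18R1 were not called. The IL1RL1 log2 fold change ranged from 2.26 to 2.75 and that of MUC1 from -2.62 to -2.36. Genes called over the whole table ranged from 2784 to 4004, with 3158 under the replicate block, of which 3136 were shared with the fit without it. Same-numbered libraries did not deviate together (r = -0.0457, -0.123 and -0.0318), so the numbers were not read as pairs; the block left 4 members called and ended the calls of BIRC3, IL17RA and IL6ST and of no other gene named. With no filter, 1 further family gene (IL1RL2) was called. On log2(TPM + 1) and on log2(TPM + 0.1), 8 inducible genes were called, in place of 13. There 22 genes of the list were tested, in place of 20. PTGS2 was left out, since these fits kept only genes with a mean of at least 0.5 TPM. What else lowered the count was not tested. With 1 library left out, the calls numbered between 2784 and 3645 for all genes, 4 and 8 for signalling, 2 and 4 for processing and 10 and 13 for inducible genes. On both TPM scales MAP3K8, TAB3, BIRC3, IL11, TIRAP, IL6ST, IL17RA and CACHD1 were no longer called. IL18BP ranged from -0.21 to 0.051 with 1 library left out, reversing to 0.051 without DOX-positive replicate 2, and was called under no alternative. Total counts in place of TMM moved the share of calls that were higher from 48.8% to 39.3%. IL1A, IL1B, IL33 and the IL-36 cytokine genes lay at or under 3 counts per library, where changes were not detectable at this depth.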

Other observations

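Receptors that share MYD88 or the downstream NF-κB genes with the IL-1 family were listed after the members' counts had been seen. Of 14 Toll-like receptor and adaptor genes, 7 passed the filter and 2 were called, both higher, where 13% of all genes tested were. These were TIRAP, which bridges MYD88 to some Toll-like receptors, at a log2 fold change of 0.46 ± 0.154 (SE, edgeR with an adjusted p of 0.0313), and LY96, a lipopolysaccharide-binding partner of TLR4, at 1.65 ± 0.541 (edgeR adjusted p = 0.0271). LY96 had only 3, 2 and 8 counts in DOX-negative and 16, 15 and 10 in DOX-positive libraries. LY96 thus passed the filter through the group where it was higher, and nothing is read from the count of 2 that includes it. With 1 library left out its log2 fold change ran from 1.31 without DOX-negative replicate 2 to 2.38 without DOX-negative replicate 3, the only one of these fits that kept its call, and with no filter on counts it was not called (edgeR adjusted p = 0.0534). TIRAP ran from 0.38 to 0.57 and was not called without DOX-negative replicate 1 or 3, or DOX-positive replicate 2 or 3. Without 1 library the list held between 0 and 1 called genes: 0 without DOX-negative replicate 1, DOX-positive replicate 2 or DOX-positive replicate 3, and 1 without any of the other three. It also held 1 under DESeq2, total counts, no filter, at least 10 counts per library and both TPM scales. None was called lower by edgeR or DESeq2, though 1 gene had an unadjusted edgeR p under 0.05 in that direction. TLR4 had 2 counts in 1 library and TLR7 and TLR8 had 0.

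Of 19 receptor genes for other cytokines, 16 passed the filter, 2 rose and 2 fell, against 13% and 13.7% of all genes tested. IL6R, the receptor of interleukin-6, rose from 41.8 ± 2.17 to 70.2 ± 11.2 CPM (SD, n = 3), a log2 fold change of 0.75 ± 0.0971 (edgeR adjusted p = 5.59e-06). The tumour necrosis factor receptor gene TNFRSF1A fell from 151.9 ± 2.45 to 126.7 ± 5.11 CPM (-0.26 ± 0.0636, edgeR adjusted p = 0.00384). Both kept their calls under all 14 alternatives. IL6ST, the signalling chain for interleukin-6, had 0.19 ± 0.0611 (edgeR adjusted p = 0.0271) and IL17RA -0.24 ± 0.0746 (edgeR adjusted p = 0.022). Both lost their calls without DOX-negative replicate 1 (0.18 and -0.22), DOX-positive replicate 1 (0.19 and -0.20) or DOX-positive replicate 3 (0.15 and -0.24), and on both TPM scales, and IL6ST also under total counts. The median log2 fold change of the list was -0.075, beside -0.00336 over all genes tested.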
